A study of Homo sapiens with 6 samples.

Results

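The cytosolic ribosomal protein genes were taken as all probe sets whose gene name on the array starts with RPL or RPS and a number, together with RPLP0, RPLP1, RPLP2, RPSA and FAU, and without the RPS6K kinases. This rule found 228 of the 45033 probe sets on the array, with 91 distinct gene names. Of these genes, 46 encode proteins of the large subunit (120 probe sets) and 33 proteins of the small subunit (87 probe sets). A further 9 genes are paralogues of a core protein (17 probe sets), and 3 names (4 probe sets) belong to the pseudogenes RPL37P6 and RPS26P10 and to RPS19BP1, which is no ribosomal protein but carries the same letters. All 79 core genes looked for were on the array.

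The cytosolic ribosome consists of a small subunit, which decodes the mRNA, and a large subunit, which joins amino acids, and each holds ribosomal RNA and a fixed set of proteins. Each core protein is needed in about equal number, and the mRNAs are among the most abundant in growing cells. Most begin with a C followed by a run of pyrimidines, the 5' terminal oligopyrimidine (TOP) motif, through which growth signals and mTOR control their translation. Surplus RPL5 and RPL11 bind MDM2 and so link ribosome assembly to p53.

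The measurements came from 6 single-colour NimbleGen arrays of HEK293 cells, a human embryonic kidney line. Every culture received an shRNA about 40 hours before the medium was replaced by a conditioned one, and RNA was isolated 7 hours later. Each of 3 groups had 2 arrays. The first group had control shRNA and control medium (control medium below), the second had control shRNA and Wnt3a medium (Wnt3a medium below), and the last combined SET8 shRNA and Wnt3a medium (SET8 shRNA below). SET8 is the enzyme that puts a single methyl group on lysine 20 of histone H4, and Wnt3a is a ligand of the Wnt/beta-catenin pathway. The control medium's source, the shRNA sequences and whether replicates were separate cultures are not given in the sources used here, and p-values then describe only how far these arrays spread, which may be technical. No SET8 shRNA arrays in control medium were analysed here, so a SET8 effect without Wnt3a was not measured. The series' design text calls the transfected reagent an siRNA in places, where the sample labels say shRNA.

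The shRNA target gene, listed under its old name SETD8, was lower in both SET8 shRNA arrays (8.97 and 9.65 log2 units on probe set AY064546) than in the 4 control shRNA arrays, with 11.03 and 10.75 under control medium and 11.20 and 10.53 under Wnt3a. All 6 HEK293 marker genes looked up, among them VIM, NEFL and KRT8, passed the filter on low values. So did 0 of 5 blood, 0 of 2 liver and 2 of 5 fibroblast markers (COL1A1 and COL3A1). The HEK293 marker PAX2, at 7.32 to 8.13 log2 units, lay close to the array medians, while the fibroblast marker COL1A1 read 11.99 to 12.70. These counts are therefore only a rough check of the cell type. The array medians lay between 7.63 and 7.79 log2 units. These are medians after the submitters' processing, so they do not show how alike the arrays were in brightness before it.

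The TOP motif is shown by the sequence around the start site of members that the results below turn on. RefSeq promoter windows (GRCh38.p14, 250 bases before to 50 after a start) were found for 71 of the 91 genes, 11 of them with more than 1 start. Of the 64 core genes matched, 48 (75.0%) had at least 1 start at a C followed by 4 or more pyrimidines, against 4.98% of 27234 other genes. If the C may lie within 5 bases of the listed start, the shares were 85.9% and 25.1%. Among the 7 paralogues matched, 1 (RPL22L1) had such a start. Each line gives the 30 bases before the start and the first 20 of the transcript, 5' to 3', with the pyrimidine run that covers the start in capitals.
RPS24 (chr10:78033833-78033882, plus strand): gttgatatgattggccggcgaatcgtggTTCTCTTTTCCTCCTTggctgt
RPS10 (chr6:34426050-34426099, minus strand): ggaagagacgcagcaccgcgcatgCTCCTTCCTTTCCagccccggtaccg
RPL38 (chr17:74203648-74203697, plus strand): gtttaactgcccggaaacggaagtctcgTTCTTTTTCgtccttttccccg
RPS27 (chr1:153990732-153990781, plus strand): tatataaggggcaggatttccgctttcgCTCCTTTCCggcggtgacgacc
RPS27L (chr15:63157458-63157507, minus strand): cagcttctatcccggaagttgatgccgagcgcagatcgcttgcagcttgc
RPL22 (chr1:6199576-6199625, minus strand): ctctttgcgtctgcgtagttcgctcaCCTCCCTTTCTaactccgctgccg
RPL22L1 (chr3:170870176-170870225, minus strand): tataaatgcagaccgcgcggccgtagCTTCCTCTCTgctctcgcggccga
RPL4 (chr15:66504836-66504885, minus strand): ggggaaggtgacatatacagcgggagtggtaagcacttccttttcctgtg
RPS27L, the paralogue of RPS27, had no pyrimidine run at its start, while RPS27 did. RPL4 had none at the listed start, and its line ends in a pyrimidine-rich stretch just downstream. Other short motifs were less widespread. CCGGAAG, an ETS-type site searched on both strands over the whole window, was present in 34.4% of core genes and 12.1% of other genes. AAGATGG, a YY1-type site searched in the same way, was present in 14.1% and 7.09%, and TATAAA, searched on the transcript's strand in the 40 to 20 bases before the start, in 3.12% and 2.91%. AAGATGG and CCGGAAG can overlap at the shared AAG. A match describes these letters only and is not shown to be a bound site.

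The members were among the brightest probe sets on every array. Of the 91 genes, 15 had 1 probe set and 76 had more, up to 7 for RPL13. After the filter, which required a value over the array's median on 2 or more of the 6 arrays, 222 of the 228 member probe sets were tested, at least 1 for each gene. The 6 left out were BC042362 of RPS27A, BC047648 of RPS27L, BC063476 of RPL37A, BC071669 of RPS3, BC081565 of RPL15 and 1 of a gene on chromosome Y. Levels of the 2 members on chromosome Y are not given, though counts and medians include them. For the other 89 genes, the brightest probe set by mean over the 6 arrays stood for the gene, and 77 of them lay above 13 log2 units. Between 18 and 38 of these 89 lay within 1 log2 unit of the brightest probe set of the array, where 0.569% to 0.915% of all probe sets lay. The lowest of these counts, 18, was in SET8 shRNA replicate 2. How far signal near the top of the scale is compressed was not tested.

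RPLP0, the stalk protein of the large subunit and a frequent reference gene, read 14.35 and 14.26 log2 units under control medium, 14.47 and 14.26 with Wnt3a and 14.28 and 14.20 with SET8 shRNA. RPS6, the small subunit protein phosphorylated by S6 kinase, read 14.38 and 14.17, then 14.55 and 14.22, then 14.47 and 14.16. On these brightest probe sets the 3 groups overlapped for both genes. On BC001127 of RPLP0, with 12.98 and 13.04, then 13.08 and 12.98, then 12.81 and 12.87, the SET8 shRNA arrays were the lowest. On BC000087 of RPLP0 both Wnt3a arrays lay above both control medium arrays, and on NM_001002 both SET8 shRNA arrays did. BC008594 and BC070194 of RPLP0 overlapped throughout. RPL5 read 14.04 and 14.23, then 14.04 and 14.04, then 13.95 and 14.36. RPL11 read 13.81 and 14.07, then 13.91 and 14.12, then 13.98 and 13.71. On these brightest probe sets the MDM2-binding pair showed no ordering by group. On BC001882 of RPL5, with 14.02 and 13.92, then 13.70 and 13.67, then 13.77 and 14.22, both Wnt3a arrays were the lowest. BC018970 of RPL11 overlapped between all 3 groups. RPS19, mutated in Diamond-Blackfan anaemia, read 14.89 and 15.06, then 14.92 and 14.76, then 14.73 and 14.68, and on this brightest probe set the SET8 shRNA arrays were the lowest by a narrow margin. Its other probe sets, BC000023 and BC007615, overlapped between all 3 groups.
RPL10, at the peptidyl transferase centre, read 14.82 and 14.93, then 14.78 and 14.71, then 14.71 and 14.55, so on this brightest probe set both control medium arrays were the highest. Its other probe sets, AK027197 and NM_006013, did not show this order. The ubiquitin fusion genes were RPS27A, with 13.25 and 13.38, then 13.52 and 13.14, then 13.53 and 13.03, and FAU, a ubiquitin-like fusion, with 14.25 and 14.83, then 14.49 and 14.71, then 14.43 and 14.31. The control medium replicates of FAU lay far apart. In FAU the SET8 shRNA arrays lay below both Wnt3a arrays on the brightest probe set, while its other probe set, NM_001997, overlapped between all 3 groups.

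**Figure D1:**
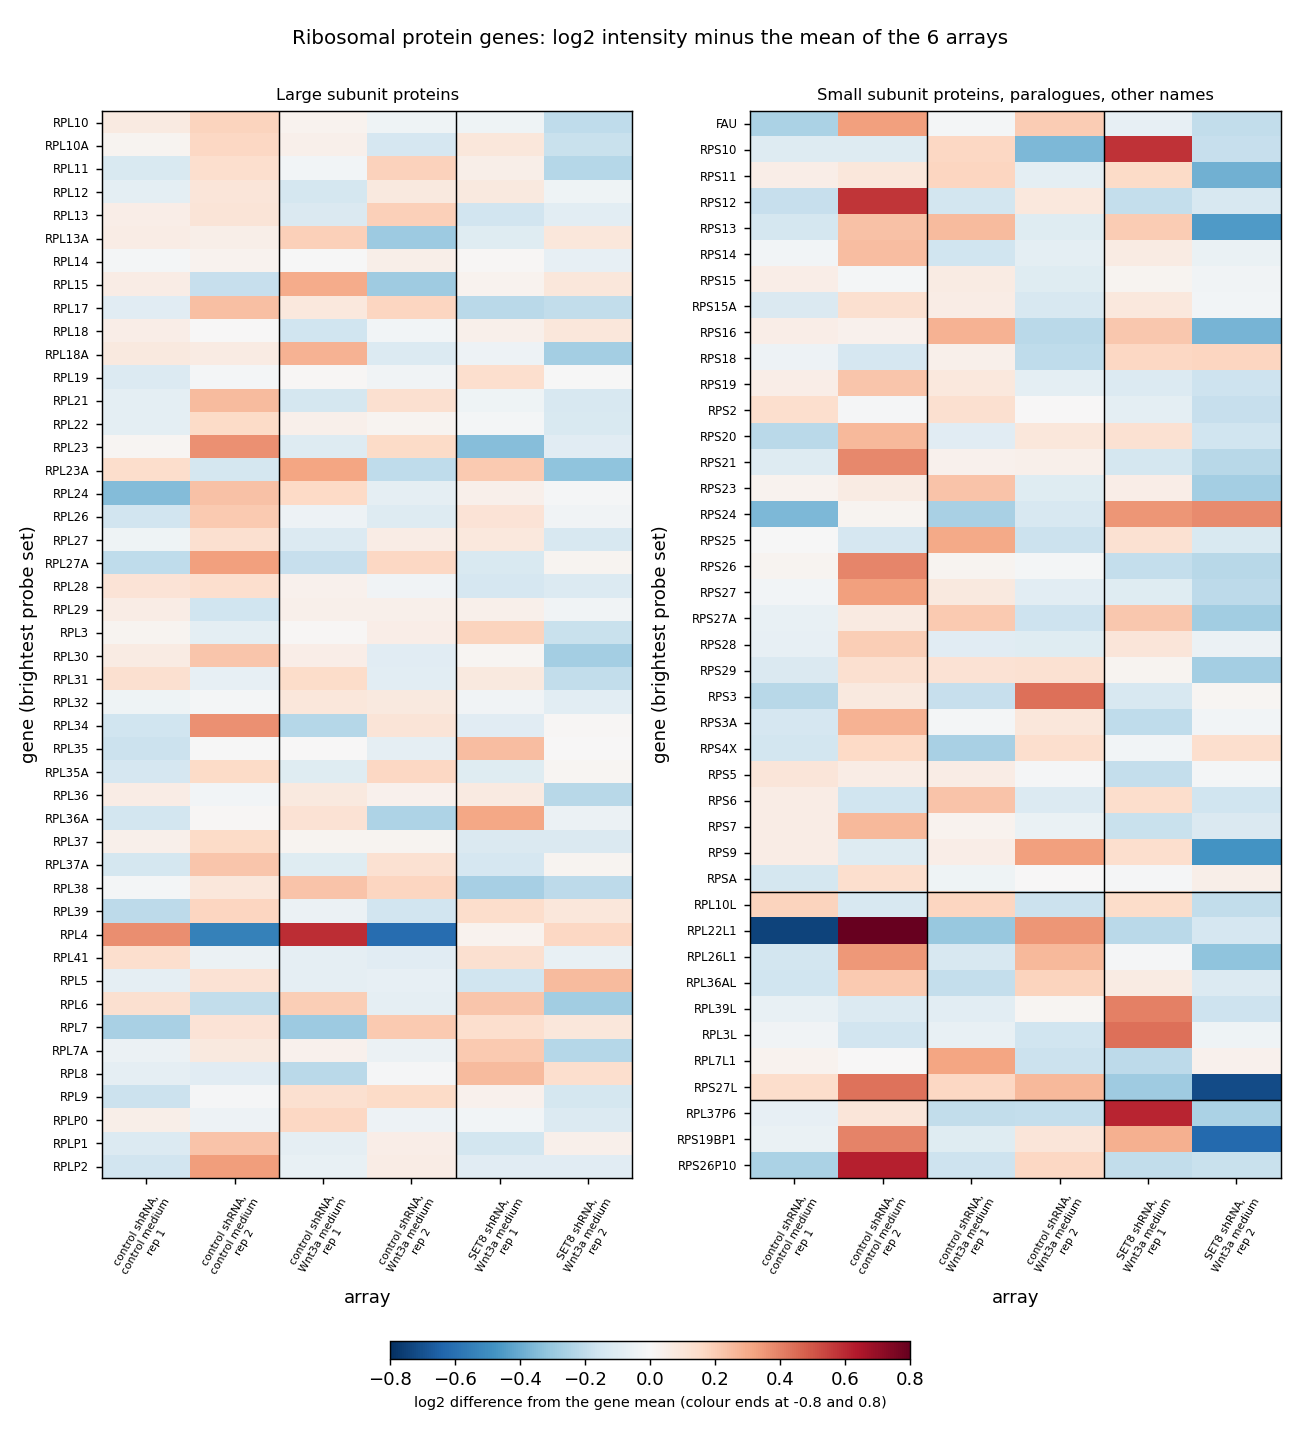
Log2 intensity of 87 ribosomal protein genes (rows, brightest probe set) in the 6 arrays (columns), as the difference from the gene's mean over the arrays (colour, log2 units). Most cells are pale; RPS24 is red in both SET8 shRNA arrays, RPS27L is blue in both, and RPL4 and RPL22L1 change colour between replicates of the control shRNA groups.

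The first comparison asks what Wnt3a medium did to these genes in cells with control shRNA. No member passed an adjusted p of 0.05 (limma, Benjamini-Hochberg over 23808 probe sets), as was true of all probe sets (0.0% called). None had an unadjusted p under 0.05 either, against 2.14% of all probe sets tested. In 14 of the 222 member probe sets (6.31%) both Wnt3a arrays lay above both control medium arrays, against 12.0% of all, and in 27 (12.2%) both lay below, against 9.15% of all. The median log2 fold change over the 91 genes was -0.03, beside 0.02 over all probe sets tested, with 53 genes lower and 38 higher. Without replicate 2 of control medium the median was 0.04, and without replicate 1 it was -0.12. These are values of bulk RNA, in which fewer cells of a kind and less RNA per cell cannot be told apart.

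Most fold changes of the members were small. On the brightest probe set of each gene, fold changes of 84 of 91 genes (92.3%) lay within 0.2 log2 units of 0, against 63.5% of all probe sets and 85.4% of the 2749 other probe sets with a mean above 13 log2 units. Over all 222 member probe sets, the like-for-like share was 87.8%, close to that of the other bright ones. The median standard error of a fold change was 0.25 for the members and 0.28 for all probe sets.

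The genes with the smallest unadjusted p on each side all had an adjusted p of 1.0 (limma). Higher values with Wnt3a included those of RPL9 (0.23, SE 0.23), RPS9 (0.22), RPS3 (0.20), RPL38 (0.16) and RPS25 (0.14). Lower values included those of RPS14 (-0.23), RPS12 (-0.23), RPS26 (-0.21), RPS7 (-0.17) and RPS28 (-0.16). RPS14, part of the small subunit platform, read 14.64 and 14.91 under control medium and 14.50 and 14.58 in Wnt3a medium. Its other probe sets gave fold changes of 0.04, -0.09, 0.04 and -0.15, all with overlapping arrays. RPS12 read 13.91 and 14.67 under control medium and 13.95 and 14.18 in Wnt3a medium, so its lower mean rests on replicate 2 of control medium, and the groups overlapped. With each array left out in turn, RPS14 gave -0.36 to -0.09, RPS26 -0.39 to -0.02 and RPS28 -0.29 to -0.03.
Further probe sets often gave another direction. RPL9 read 0.23 on its brightest probe set and 0.07, -0.10 and -0.10 on the others, and RPS9 read 0.22 on its brightest and -0.21 and -0.07 on the others. Over the 74 genes with 2 or more tested probe sets, the Wnt3a fold changes of the brightest and second brightest correlated at r = 0.07, with the same sign in 41 genes. Only RPL18 had all of its probe sets, 2 of them, lower in both Wnt3a arrays (1.35% of 74 genes, against 1.43% of 6295 other genes), and no member gene had all of them higher (0.0% of 74 genes, against 3.29% of 6295 other genes with 2 or more).

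**Figure D2:**
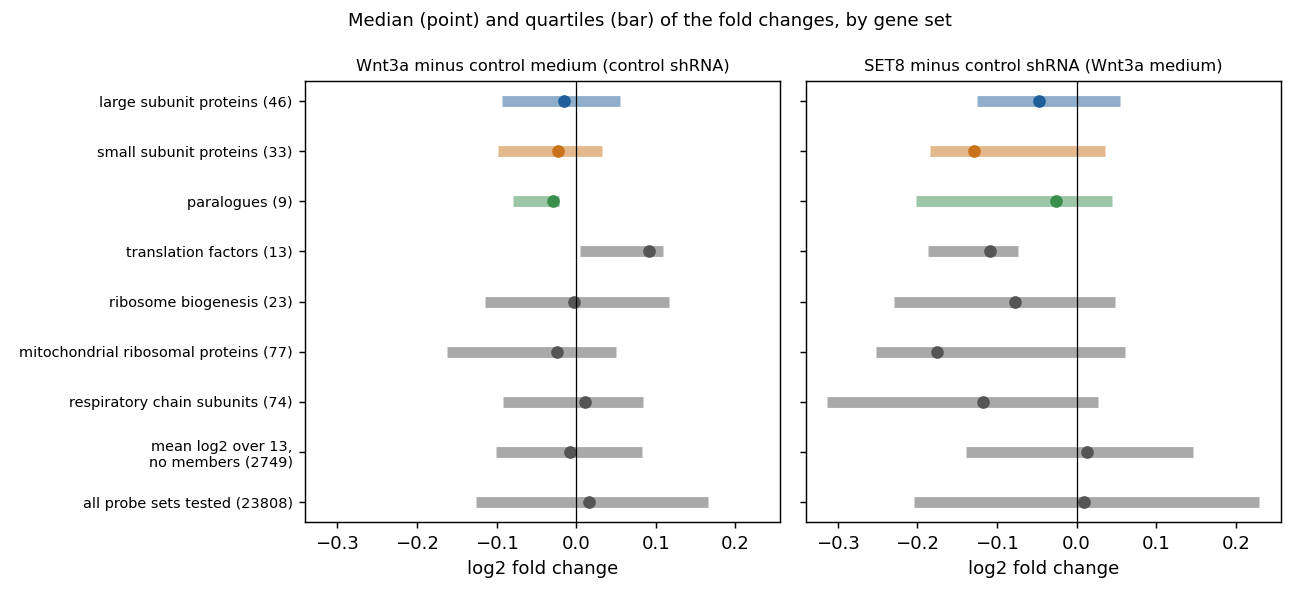
Median (point) and quartiles (bar) of log2 fold changes for the ribosomal protein classes, related gene lists, bright probe sets and all probe sets (number of genes or probe sets in brackets), with Wnt3a medium on the left and SET8 shRNA on the right. In Wnt3a medium the large and small subunit medians lie within 0.03 of 0; with SET8 shRNA the large subunit median is -0.05 and the small subunit median -0.13.

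The second comparison asks what the SET8 shRNA did in Wnt3a medium. RPS24 and RPS10 gave higher values with SET8 shRNA and RPS27L lower values, each on more than 1 probe set, yet no member passed the threshold (smallest adjusted p among members 0.387, limma). Of all probe sets, too, 0.0% were called. An unadjusted p under 0.05 was reached by 6 of the 222 member probe sets (2.70%), against 7.16% of all. Both SET8 shRNA arrays lay above both control shRNA arrays in 33 member probe sets (14.9%), against 17.1% of all, and below in 37 (16.7%), against 17.0% of all. These shares are no larger than the background.

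RPS24, a small subunit protein needed for processing of the 18S rRNA precursor, lies on chromosome 10 (79463628 to 79470465, hg18). Its brightest probe set, BX537975, read 13.98 and 14.36 under control medium, 14.08 and 14.21 with Wnt3a and 14.70 and 14.72 with SET8 shRNA. The SET8 shRNA arrays were above all 4 others. The log2 fold change was 0.56 (SE 0.24, adjusted p = 0.70, limma), and all 4 probe sets of the gene placed both SET8 shRNA arrays above both control shRNA arrays in Wnt3a medium, with fold changes of 0.56, 0.22, 0.71 and 0.59. Leaving out each array in turn gave 0.50 to 0.63 on the brightest. The 4 probe sets cover nearly the same span, so they are repeat readings of one gene. Start-site sequence is given above with its pyrimidine run of 16 bases.

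RPS10, a protein of the small subunit head, lies on chromosome 6 (34493210 to 34501805, hg18). The brightest of its 4 probe sets, BC001032, read 14.92 and 14.40 in Wnt3a medium and 15.33 and 14.57 with SET8 shRNA, so these groups overlapped (0.29, SE 0.32). The other 3 had both SET8 shRNA arrays above both control shRNA arrays. BC070235 read 14.60 and 14.46 against 15.19 and 15.07 (0.60, SE 0.22, unadjusted p = 0.031 and adjusted p = 0.61, limma). BC001955 read 14.55 and 14.47 against 15.01 and 15.00 (0.49), and NM_001014 read 14.60 and 14.37 against 14.95 and 14.74 (0.36). On the brightest alone, leaving out SET8 shRNA replicate 1 turned the fold change to -0.09.

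RPS27L, a paralogue of RPS27 known as a p53 target, lies on chromosome 15 (61233108 to 61236726, hg18). Its log2 intensity was 11.51 and 11.80 in control medium, 11.53 and 11.62 in Wnt3a medium and 11.08 and 10.65 with SET8 shRNA. Both SET8 shRNA arrays were below the other 4. The fold change of -0.71 (SE 0.26, unadjusted p = 0.027 and adjusted p = 0.59, limma) was the lowest among members, and ranged from -0.93 to -0.49 with each array left out. The second tested probe set, NM_015920, read 10.62 and 10.69 against 10.57 and 9.97 (-0.39). RPS27 itself read 13.59 and 13.42 against 13.41 and 13.30 (-0.15) on its brightest probe set.

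Among genes with 2 or more tested probe sets, RPS24, RPL3L and RPL41 had all of them higher in both SET8 shRNA arrays (4.05% of 74 genes, against 7.39% of other genes), and RPS27L had all of them lower (1.35%, against 7.43%); RPL41, like RPL18 above, is named after its values were seen. Among further genes named by smallest unadjusted p, RPL8 gave 0.30, RPL3L, the striated muscle form of RPL3, 0.31, the pseudogene RPL37P6 0.37 and RPS18 0.25. RPL37P6 read 11.36 and 11.37 in Wnt3a medium and 12.16 and 11.30 with SET8 shRNA, so its mean rests on replicate 1.
The lower side included RPL38 (-0.44), RPS9 (-0.36), RPL17 (-0.34) and RPS29 (-0.24). RPL38, known for its part in translation of Hox mRNAs in mouse embryos, read 14.59 and 14.53 in Wnt3a medium and 14.09 and 14.15 with SET8 shRNA, and did not overlap. Its other probe sets gave -0.28 and -0.17 with overlapping arrays. For RPL17 the other 4 probe sets gave 0.18, -0.04, -0.13 and 0.13, and for RPS29 the other 2 gave 0.33 and -0.13, so the direction depended on the probe set. With each array left out in turn, the brightest probe set gave -0.67 to -0.06 for RPS9, with the value nearest 0 without SET8 shRNA replicate 2, and -0.39 to -0.10 for RPS29. On the higher side it gave 0.08 to 0.55 for RPL3L and 0.13 to 0.37 for RPS18. The other probe sets of RPS18 gave -0.07 and 0.16.

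**Figure D3:**
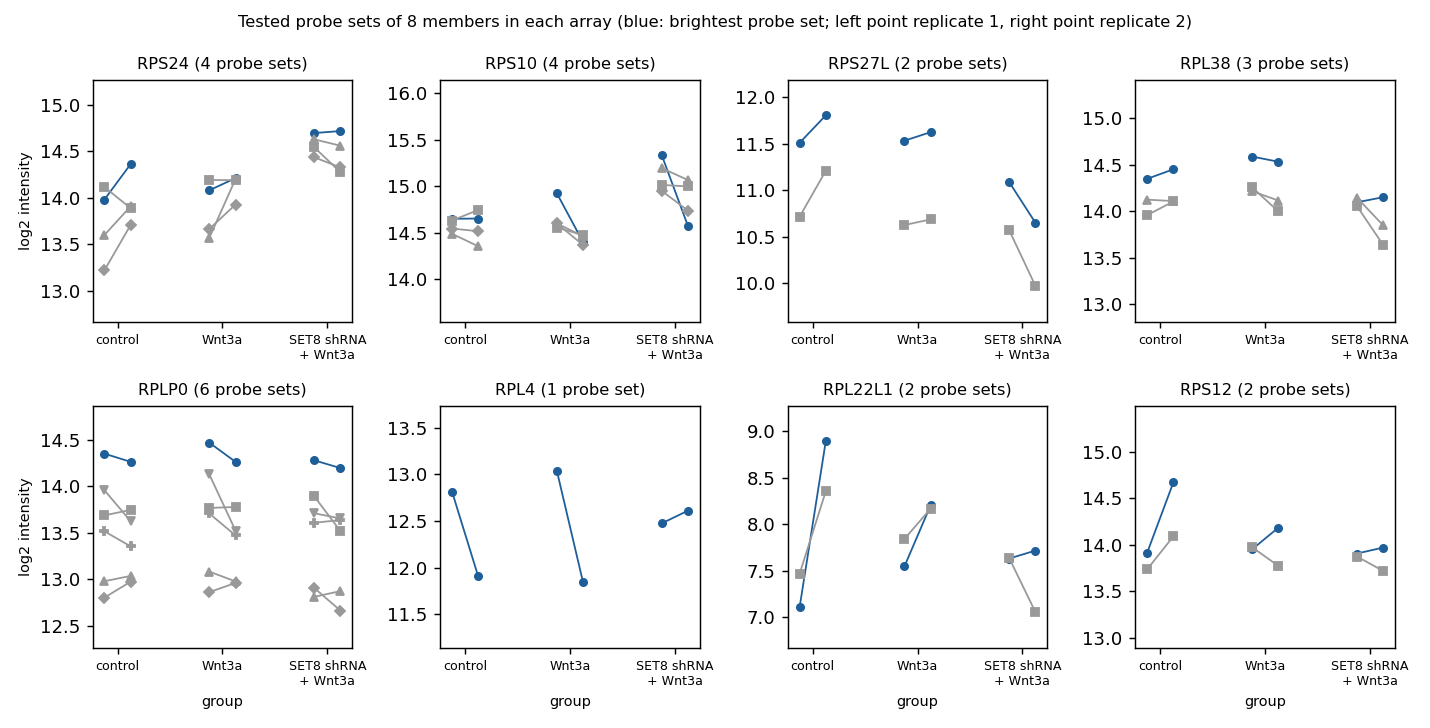
Log2 intensity of every tested probe set of 8 members in each array, by group, with the same height of scale in each panel; lines join the replicates of a group. The brightest probe set of RPS24 is at 14.70 and 14.72 with SET8 shRNA, above its other arrays, the brightest probe set of RPS27L is as low as 10.65, and RPL4 differs by about 1 log2 unit between replicates of both control shRNA groups.

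The 6 member probe sets at an unadjusted p under 0.05 were 1 each of RPS24, RPS10 and RPS27L, given above, and of RPS2, RPL22 and RPL13A, chosen here after their values were seen. In the last 3 the brightest probe set did not follow. AB065089 of RPS2 read 12.11 and 11.78 against 12.76 and 12.81 with SET8 shRNA (0.84, SE 0.23, adjusted p = 0.39, limma), NM_002952 of RPS2 gave 0.41, and the brightest, X17206, gave -0.20. NM_000983 of RPL22 read 10.61 and 11.35 against 11.52 and 11.91 (0.73), while the brightest gave -0.10. NM_012423 of RPL13A gave -0.65 and the brightest 0.04. Many ribosomal protein genes have processed pseudogenes of near-identical sequence, and how probes were chosen against these is not given in the sources used here, so values of single probe sets are uncertain in that respect.

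Over the whole family, more genes had lower than higher values with SET8 shRNA, by small amounts. The median log2 fold change was -0.07 over 91 genes (60 lower, 31 higher), beside 0.01 over all probe sets and 0.01 over other probe sets above 13 log2 units. It was -0.05 for the large subunit (29 of 46 lower) and -0.13 for the small subunit (23 of 33 lower). Leaving out SET8 shRNA replicate 2 brought the median of all members to -0.0055, so the value rests largely on that array, while the direction was the same under the other normalisations tried. Fold changes of 70 genes (76.9%) lay within 0.2 log2 units of 0, against 47.0% of all probe sets and 65.1% of the bright ones, and the share over all 222 member probe sets was 70.7%. Core genes with a TOP start had a median of -0.07 (47 genes, without the matched member on chromosome Y) and those with none -0.01 (16 genes), with quartiles of -0.13 to 0.04 and -0.15 to 0.06. This split depends on the exact base listed as the start. RPL19 and RPS7 count as having none, though a listed start of each lies inside a pyrimidine run, of 12 and 11 bases.

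Related gene lists gave medians on the same side. With SET8 shRNA the median was -0.11 for 13 translation factors and other TOP mRNAs, -0.08 for 23 ribosome biogenesis genes, -0.17 for 77 mitochondrial ribosomal protein genes and -0.12 for 74 respiratory chain subunits, and no member of any list was called. With Wnt3a the same lists gave 0.09, -0.0021, -0.02 and 0.01. Differences between the lists were not tested.

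RPL22L1, the paralogue of RPL22, read 7.11 and 8.89 under control medium, 7.55 and 8.20 with Wnt3a and 7.63 and 7.72 with SET8 shRNA. RPL22 read 13.93 and 14.16, then 14.05 and 14.02, then 13.99 and 13.88. RPL26L1 had means of 12.85 ± 0.35, 12.81 ± 0.28 and 12.58 ± 0.22 (SD, n = 2 each) in the same order, and RPL26 read 13.77 and 14.14, then 13.89 and 13.83, then 14.03 and 13.90.
RPL3L read 10.06 and 9.94, then 10.03 and 9.93, then 10.53 and 10.05, while RPL3 read 14.51 and 14.41, then 14.50 and 14.54, then 14.67 and 14.31. RPL10L, a paralogue expressed in testis, read 13.87 and 13.56, then 13.86 and 13.52, then 13.84 and 13.50, with replicate 1 above replicate 2 by about the same step in each group on this brightest probe set. Its other probe set, NM_080746, read 13.01 and 12.80, then 13.06 and 13.38, then 13.46 and 13.17, with the order of replicates turned in Wnt3a medium. RPL39L read 13.18 and 13.13, then 13.15 and 13.26, then 13.65 and 13.08. RPL36AL read 11.14 and 11.51, then 11.11 and 11.48, then 11.36 and 11.18, and RPL7L1 12.56 and 12.54, then 12.85 and 12.36, then 12.33 and 12.57. On BC107716 of RPL36AL, with 10.80 and 11.20, then 11.39 and 11.27, then 11.31 and 10.75, both Wnt3a arrays lay above both control medium arrays. Levels of different probe sets are not compared, since probes differ in how well they bind.

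The third comparison sets the SET8 shRNA arrays against those of control medium, so both the shRNA and the medium differ. It shares arrays with each of the others, so its values are not further evidence. No member was called (smallest adjusted p 0.252, limma), where 12 of all probe sets (0.0504%) were. An unadjusted p under 0.05 was reached by 5 member probe sets (2.25%), against 10.6% of all. The 5 were RPS24 (NM_001026, 0.84, and NM_033022, 0.92), RPS10 (BC070235, 0.71), RPS2 (AB065089, 0.57) and RPS27L (BC003667, -0.79, SE 0.26). Both arrays lay above in 28 probe sets (12.6%), against 21.5% of all, and below in 33 (14.9%), against 18.2% of all.
The median over the members was -0.09, with 61 of 91 genes lower, beside 0.02 for all probe sets. It was 0.0019 without replicate 2 of control medium and 0.0033 without SET8 shRNA replicate 2, so 1 array in each group carried it. After RPS27L, the genes with lower values by smallest p were RPS26 (-0.41), RPL23 (-0.41), RPS7 (-0.31), RPS27 (-0.30) and RPL38 (-0.28). For RPL23 the other probe sets gave 0.22 and 0.03, and leaving out each array in turn gave -0.58 to -0.23 on the brightest. RPS26 ranged from -0.60 to -0.23 in the same way. Besides RPS24 (0.53), higher values were those of RPS10 (0.30), RPL3L (0.29), RPL8 (0.27), RPS18 (0.26) and RPL35 (0.22). The other probe sets gave -0.095 and 0.21 for RPS18, and 0.21, 0.19 and -0.10 for RPL35.

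The differences between replicates were as large as those between groups. These are short genes: the median genomic span was 3712 bases, 84 of 89 spans were under 10 kb and 63 under 5 kb. In control medium, replicate 2 was above replicate 1 in 64 of 91 genes, with a median difference (replicate 1 minus replicate 2) of -0.17 log2 units, beside 0.03 over all probe sets. In Wnt3a medium the median was 0.01, and with SET8 shRNA it was 0.11, with replicate 1 above replicate 2 in 61 of 91 genes. The order thus differed between groups: members were high in replicate 2 of control medium and low in replicate 2 of SET8 shRNA.
By subunit, the medians were -0.13, 0.02 and 0.08 for the large subunit in the order of the groups, and -0.24, 0.04 and 0.10 for the small subunit.

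Other short genes showed a like pattern. Probe sets outside the family with spans under 5 kb had medians of -0.09, -0.14 and 0.11 (5023 probe sets), and those over 50 kb had 0.15, 0.11 and -0.13 (5315 probe sets). Respiratory chain subunits gave -0.28, -0.14 and 0.27, and mitochondrial ribosomal proteins -0.20, -0.07 and 0.16. Their median spans of 8167.5 and 8541 bases fall in the class of 5 to 50 kb. Probe sets of that class outside the family had medians of 0.03, 0.02 and -0.0052 (13248 probe sets), nearer 0 than either list in each group. In Wnt3a medium the members stayed near 0 where other short genes were on the negative side. A smooth term for span taken out of each array moved the members' medians to -0.054, 0.15 and -0.0037. RNA quality was not given in the sources used here, and its part in the pattern was not tested.

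**Figure D4:**
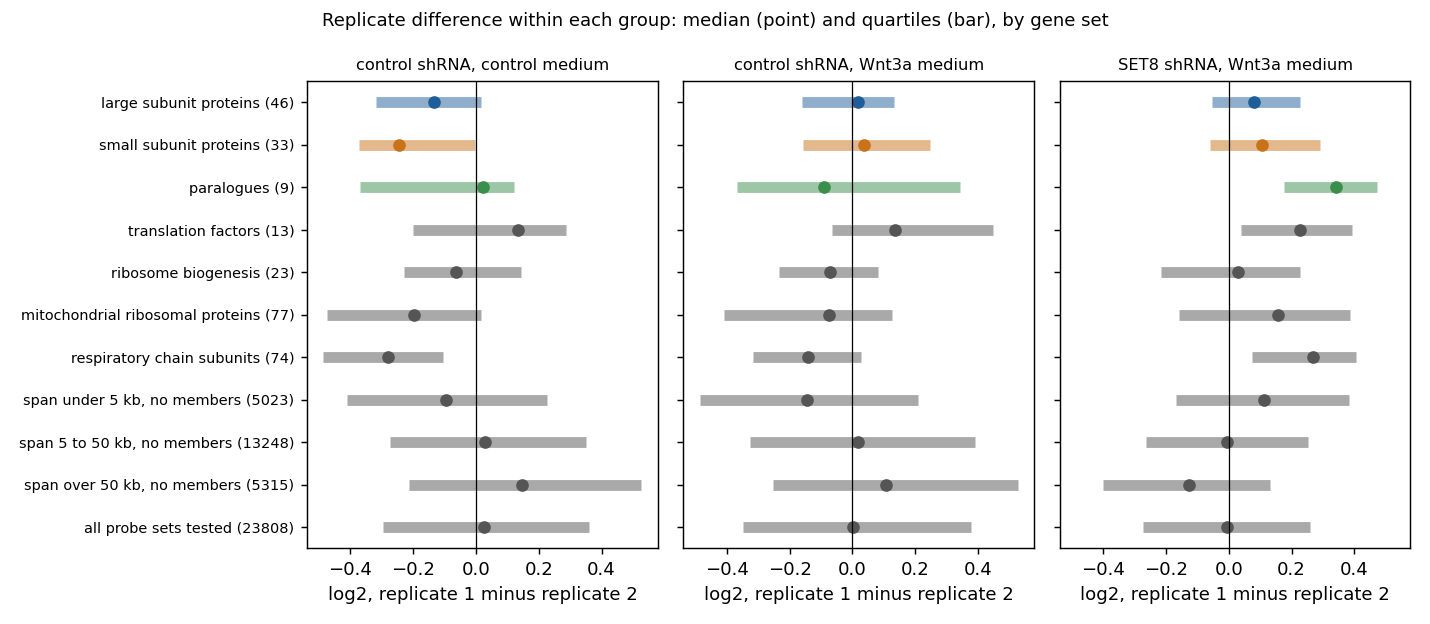
Replicate 1 minus replicate 2 (log2 units) within each of the 3 groups, as median (point) and quartiles (bar), for the ribosomal protein classes, related lists and probe sets by genomic span. Probe sets under 5 kb have medians of -0.09, -0.14 and 0.11 in the 3 groups, and those over 50 kb lie on the opposite side of 0 in each.

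Single members differed far more between replicates than the medians. RPL4, a core large subunit protein on chromosome 15 (64578706 to 64584238, hg18) with 1 probe set, read 12.82 and 11.90 under control medium, 13.04 and 11.84 with Wnt3a and 12.47 and 12.61 with SET8 shRNA. Replicate 1 was higher by 0.91 and 1.20 in the control shRNA groups and lower by 0.14 with SET8 shRNA. RPL22L1 went the other way, with differences of -1.79, -0.66 and -0.09, and its other probe set read 7.47 and 8.35, then 7.84 and 8.17, then 7.63 and 7.05. On every array RPL22L1 was the dimmest of the 89 genes shown. Its 7.11 in control medium replicate 1 lay below that array's median of 7.73. RPL4 and RPL22L1 had standard errors (0.45 and 0.54) well above the median of 0.25, so smaller group changes could not be detected in them.
The other genes with the most negative mean difference in the control shRNA groups were RPS26P10 (-0.60), RPS12 (-0.49), RPS3 (-0.46) and RPL26L1 (-0.44). Those with the most positive were RPL15 (0.41), RPL23A (0.40), RPL10L (0.32) and RPS25 (0.30). NM_000984 of RPL23A gave -0.05 in both control shRNA groups, against the direction of its brightest probe set. NM_001016 of RPS12 gave -0.35 in control medium and 0.20 in Wnt3a medium. NM_016093 of RPL26L1 kept the direction, with -0.31 and -0.06. For RPL15, 2 of the other tested probe sets had the same order of replicates in both control shRNA groups, with 12.94 and 12.54, then 13.03 and 12.37 on BC068198, and 12.91 and 12.58, then 12.94 and 12.40 on BC070328. NM_002948 of RPL15 did not, with 13.04 and 13.30, then 13.05 and 13.10.

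Across the 91 members on their brightest probe sets, the replicate differences of control medium and Wnt3a medium correlated at r = 0.69, those of control medium and SET8 shRNA at 0.30, and those of Wnt3a medium and SET8 shRNA at 0.36. Over all probe sets tested the same correlations were 0.75, -0.29 and -0.29, and over all 222 member probe sets they were 0.52, 0.09 and 0.30. These are correlations across genes that share the arrays, given as a description. RPL4 and RPL22L1 lie at the far ends of the first relation. Differences of the brightest and second brightest probe set of 74 genes correlated at 0.45, 0.23 and 0.18 in the 3 groups, so much of a single probe set's replicate difference was not shared by the gene's next probe set.

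**Figure D5:**
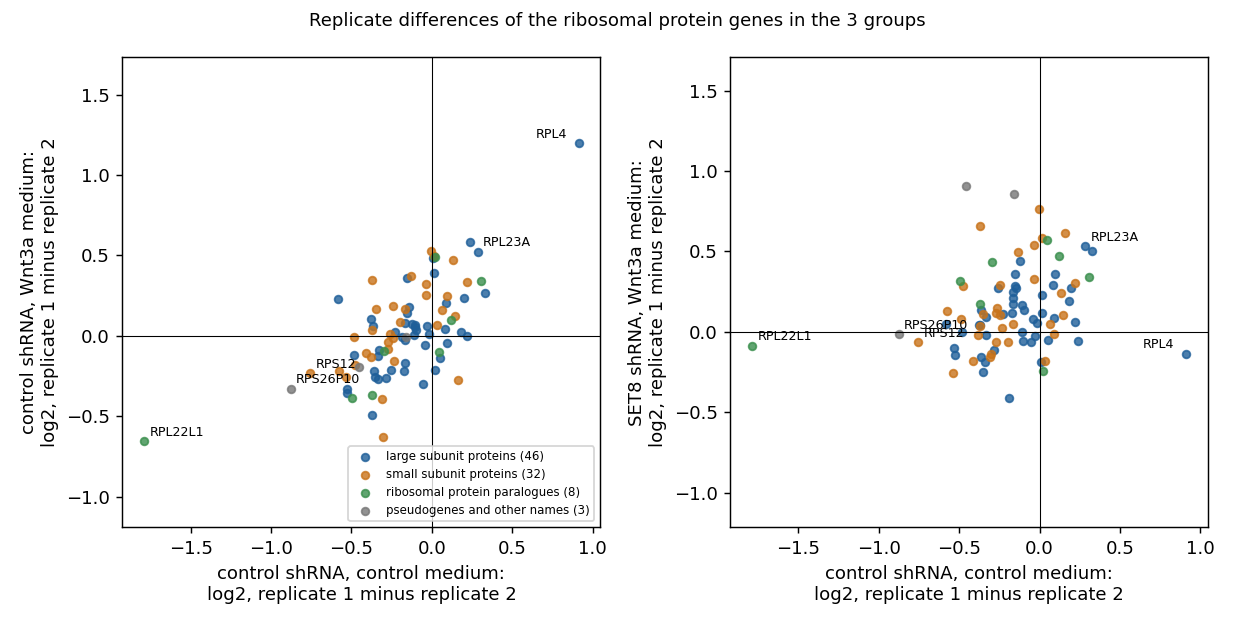
Replicate difference (replicate 1 minus replicate 2, log2 units) of 89 ribosomal protein genes in control medium (horizontal) against that in Wnt3a medium (left) and with SET8 shRNA (right), coloured by class. Points spread along the diagonal on the left, with RPL4 and RPL22L1 at its ends; on the right both lie near 0 on the vertical axis.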

How the data were processed

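For each array the authors deposited a linear intensity for every probe set. The submitters' processing notes name RMA, the robust multi-array average, whose version and settings are not given in the sources used here. Each probe set holds 3 probes, and positions are on hg18 per the file headers. Log2 values were used without an offset. Groups and replicate numbers come from the labels.

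Probe sets above the array median in at least 2 of 6 arrays were fitted with limma 3.58.1 (R 4.3.3; lmFit, eBayes) in a model of 3 groups, with 3 residual and 4.32 prior degrees of freedom. The number of arrays limits the precision: an exact permutation test of 2 against 2 cannot go below p = 0.333. Calls needed a Benjamini-Hochberg adjusted p under 0.05 over all 23808 probe sets tested. The script was tested on simulated data.

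Members, gene lists and tests were chosen with earlier results of these data known. Named genes were, per comparison, members past the threshold, filled to 6 higher and 6 lower by smallest unadjusted p. To these were added 8 core genes, the 5 highest and 5 lowest by mean replicate difference in the control shRNA groups, paralogues with their partners, and probe sets that disagree; a few genes that this rule or the lists hold are not reported here. Protein identity of paralogues was planned and not used here. Start-site sequences come from RefSeq (GRCh38.p14). Alternatives were other filters, quantile normalisation, median centring, a spline of span, an intensity trend, a replicate block, the 4 arrays of a comparison, left-out arrays and means over probe sets.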

Additional observations from a re-analysis of the deposited data

How the results depend on the processing

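The number of member probe sets past the threshold was 0 in all 3 comparisons under every alternative run, with a smallest adjusted p (limma) of 0.996 to 1.0 for Wnt3a, 0.127 to 1.0 for SET8 shRNA and 0.0596 to 0.789 for both changes together. The median fold change with Wnt3a was -0.095 with median centring and -0.119 to 0.043 with each array left out. With SET8 shRNA it was -0.118 to -0.0055 with each array left out. For both changes it was -0.18 with median centring, -0.011 with the span spline and -0.165 to 0.0033 with each array left out. The median replicate difference in control medium was -0.27 with median centring, which moves all probe sets of these arrays by the difference of their medians, and -0.054 with the span spline. With the same spline it was 0.15 in Wnt3a medium and -0.0037 with SET8 shRNA, where the mean over probe sets gave 0.19. Of 528 pairs of a named gene and an alternative, 521 kept the direction. RPS9 with Wnt3a was -0.021 as the mean over its probe sets. With arrays left out in turn, ranges crossed 0 for Wnt3a in RPS3 (-0.12 to 0.51), RPS25 (-0.10 to 0.37) and RPS12 (-0.60 to 0.15), for SET8 shRNA in RPL37P6 (-0.057 to 0.80) and RPS10 (-0.088 to 0.67), and for both changes in RPS10 (-0.078 to 0.68). The cause was not tested.

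A replicate block balanced over the groups cannot move the fold changes, so the medians stayed at -0.03, -0.07 and -0.09. With the replicate number as a block, all probe sets called for both changes together went from 12 to 0. The labels do not say that a number marks a shared culture or day. A block with the numbers of the SET8 shRNA arrays exchanged, chosen after seeing the data, called 3, 182 and 792 of all probe sets and 0 members. Over all probe sets, other alternatives called 0 to 2 with Wnt3a, 0 to 28 with SET8 shRNA and 0 to 230 for both. Background correction and probe summary from scanner signals were not run, since the files hold summarised values.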
